A study of Mus musculus with 10 samples.

Results

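The NR4A receptors are 3 nuclear receptors, encoded in the mouse by Nr4a1 (Nur77, ENSMUSG00000023034), Nr4a2 (Nurr1, ENSMUSG00000026826), and Nr4a3 (NOR1, ENSMUSG00000028341). They were taken by gene symbol from the 55426 genes of the aortic RNA-Seq table, and they were chosen with their difference between the groups already known. Their expression difference is therefore given as a description, with a standard error (SE) and without a test. All 3 passed the filter on low values, a mean of at least 0.5 TPM, a level per transcript length within each library over the 6 aortas, which 15668 genes passed.

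NR4A proteins are transcription factors without a classical hormone ligand. Their genes are immediate-early genes, switched on quickly by cAMP and CREB, by calcium acting through calcineurin and MEF2, and by growth factors acting through ERK. As monomers the receptors bind a short element named NBRE, and NR4A1 and NR4A2 also pair with the retinoid X receptors. In arteries they are induced in smooth muscle cells by mitogens and injury, and NR4A1 is known to restrain smooth muscle proliferation.

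RNA-Seq was made from whole thoracic aortas of 3 control mice (Prdm16f/f, floxed without Cre) and 3 Prdm16SMKO mice (Prdm16f/f, SMMHC-CreERT2). PRDM16 is a transcriptional regulator, and the study asked what its loss from vascular smooth muscle does. The SMMHC (Myh11) promoter drives a tamoxifen-activated Cre in smooth muscle, and the transgene sits on the Y chromosome, so these mice were male. All mice were kept on a C57BL/6J background and carried the floxed Prdm16 alleles. Knockout was induced in young adult mice with tamoxifen by gavage, followed by a washout, and whether the controls received it is not stated. The labels give the controls as Prdm16f/f, while the study's methods also name Cre mice as controls. By the labels only the Prdm16SMKO mice carry the transgene, so Cre activity and loss of Prdm16 cannot be told apart. The age at harvest and the hour of harvest are not given in the sources used here. ChIP-Seq was made from primary wild-type vascular fibroblasts that carried a lentivirus for PRDM16 with a Flag tag, or its empty vector, after 48 hours of infection and selection with 2 µg/mL puromycin for 1 week. There was 1 anti-Flag library of each kind. Those cells overexpress a tagged protein and are not smooth muscle.

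Prdm16 itself was 56.07, 47.56, and 40.28 TPM in the control aortas and 23.31, 33.32, and 23.42 TPM in the Prdm16SMKO aortas. The groups did not overlap, and the Prdm16SMKO mean was 55.6% of the control mean, a log2 difference of −0.85 ± 0.18 (SE, n = 3 and 3, limma adjusted p = 0.0725). Smooth muscle markers made up most of the marker signal, with a summed level of 21070 to 24620 TPM for 8 genes in the control aortas. Across all tested genes the median log2 difference was −0.12, and 10636 genes lay below 0 against 5032 above it. In whole tissue, fewer cells of a type and less RNA per cell cannot be told apart.

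The 3 genes lie on 3 chromosomes (GRCm38, GENCODE M21). Nr4a1 spans chr15:101254269-101274795 on the plus strand, Nr4a2 spans chr2:57106830-57124003 on the minus strand, and Nr4a3 spans chr4:48045153-48086447 on the plus strand. Nr4a3 shares its chromosome with Prdm16, at a distance of 106.2 Mb. The stretch before each RefSeq transcription start site (TSS) is shown because all 3 carry the same short motif 4 times. The motif is TGACG, read as CGTCA on the other strand, the half-site of the cAMP response element (CRE) to which CREB binds. Each sequence runs 5′ to 3′ along its gene from 250 bases before the TSS and is printed for 250 bases, or for 128 bases in Nr4a3. Capitals mark the half-sites. In Nr4a3 the last 30 printed bases lie in the untranslated region of a GENCODE transcript that starts upstream of the RefSeq TSS, and the half-site nearest the TSS is among them.
Nr4a1 promoter, chr15:101266596-101266845, plus strand: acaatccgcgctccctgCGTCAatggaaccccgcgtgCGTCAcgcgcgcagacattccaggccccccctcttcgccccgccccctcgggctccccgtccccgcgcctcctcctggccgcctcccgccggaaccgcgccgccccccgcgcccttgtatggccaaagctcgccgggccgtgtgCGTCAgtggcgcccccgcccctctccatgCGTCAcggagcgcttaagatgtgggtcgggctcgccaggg
Nr4a2 promoter, chr2:57124004-57124253, minus strand: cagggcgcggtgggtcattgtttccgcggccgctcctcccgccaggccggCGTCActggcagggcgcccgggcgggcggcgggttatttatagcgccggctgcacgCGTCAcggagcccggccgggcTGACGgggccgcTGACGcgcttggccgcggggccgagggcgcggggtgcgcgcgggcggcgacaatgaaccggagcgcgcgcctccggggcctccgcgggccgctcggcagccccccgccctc
Nr4a3 promoter, chr4:48045055-48045182, plus strand: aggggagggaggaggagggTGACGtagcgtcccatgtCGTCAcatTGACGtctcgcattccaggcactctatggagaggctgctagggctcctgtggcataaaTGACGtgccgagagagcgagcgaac

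In Nr4a1 the half-sites begin 233, 213, 69, and 40 bases before the TSS. In Nr4a2 they begin 200, 144, 123, and 111 bases before it, and in Nr4a3 231, 213, 205, and 147 bases before it. In a window of 300 bases, 250 before and 50 after the TSS, at least 1 half-site was found in 20.8% of the 32851 RefSeq promoters of the table, and at least 4 in 0.231% of them. The count of 4 was singled out after it had been seen in the 3 genes. The full CRE, TGACGTCA, which contains the half-site on both strands, was absent from all 3 windows and present in 1.79% of all promoters.

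The other motifs looked for differed between the 3 promoters. The GC box, GGGCGG, occurred 3 times in the Nr4a1 window, 5 times in that of Nr4a2, and 1 time in that of Nr4a3, and 35.7% of all promoters had at least 1. A TATA box, TATAAA, was found in the Nr4a2 window alone, and 13.6% of all promoters had one. The NR4A element itself, NBRE, AAAGGTCA, occurred in none of the 3 windows and in 1.51% of promoters. AP-1 (TGANTCA, 7.81% of promoters), the E-box bound by clock factors (CACGTG, 7.15%), and the GATA motif (AGATAA, 11.2%) were not found in these windows either. All motifs were searched on both strands, and a match is a match of letters only. The GC content of the windows was 72.3% for Nr4a1, 81.7% for Nr4a2, and 64.7% for Nr4a3.

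**Figure D1:**
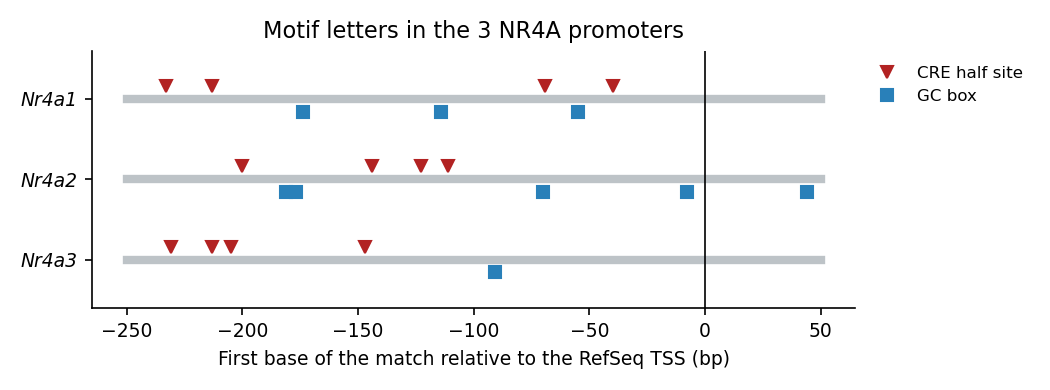
Positions of CRE half-sites (triangles) and GC boxes (squares) in the window from 250 bases before to 50 bases after the RefSeq TSS of each NR4A gene, with the distance from the TSS in bp on the x axis. Each promoter has 4 half-sites, all before the TSS, and 1 to 5 GC boxes.

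Other genes with as many half-sites had differences close to those of all genes. Besides the NR4A genes, 66 genes had a promoter with at least 4 half-sites, and 60 of them were tested. None was called by limma, against 1.07% of all tested genes. An unadjusted p under 0.05 was found for 8, against 12.7% of all tested genes. Their median log2 difference was −0.14 against −0.12 for all tested genes. A PRDM16 promoter peak was found at 29 of these 60 genes (48.3%), near the 43.3% of all tested genes with a TSS.

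Nr4a1 was the abundant member of the family and the one with the greatest difference. Its level was 110.22, 110.33, and 85.05 TPM in the control aortas and 29.89, 51.80, and 42.30 TPM in the Prdm16SMKO aortas. Every Prdm16SMKO aorta lay below every control aorta. The means were 102 ± 14.6 and 41.3 ± 11 TPM (SD, n = 3 each), so that 40.6% of the control mean was left, a 2.51-fold lower level on the log2(TPM + 0.1) scale (log2 difference −1.32 ± 0.20, SE).

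Nr4a2, best known for its need in midbrain dopamine neurons, was expressed at a far lower level. It was 6.72, 8.02, and 7.07 TPM in the control aortas and 3.13, 4.61, and 4.07 TPM in the Prdm16SMKO aortas. Again no Prdm16SMKO aorta reached the lowest control. The means were 7.27 ± 0.673 and 3.94 ± 0.749 TPM (SD, n = 3 each), and the log2 difference was −0.88 ± 0.20 (SE), or 1.84-fold lower.

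Nr4a3 differed least. It was 6.33, 8.4, and 9.2 TPM in the control aortas and 4.49, 6.03, and 7.59 TPM in the Prdm16SMKO aortas. Here the groups overlapped, since Prdm16SMKO aorta 3 lay above control aorta 1. The means were 7.98 ± 1.48 and 6.04 ± 1.55 TPM (SD, n = 3 each), and the log2 difference was −0.41 ± 0.23 (SE), or 1.33-fold lower.

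**Figure D2:**
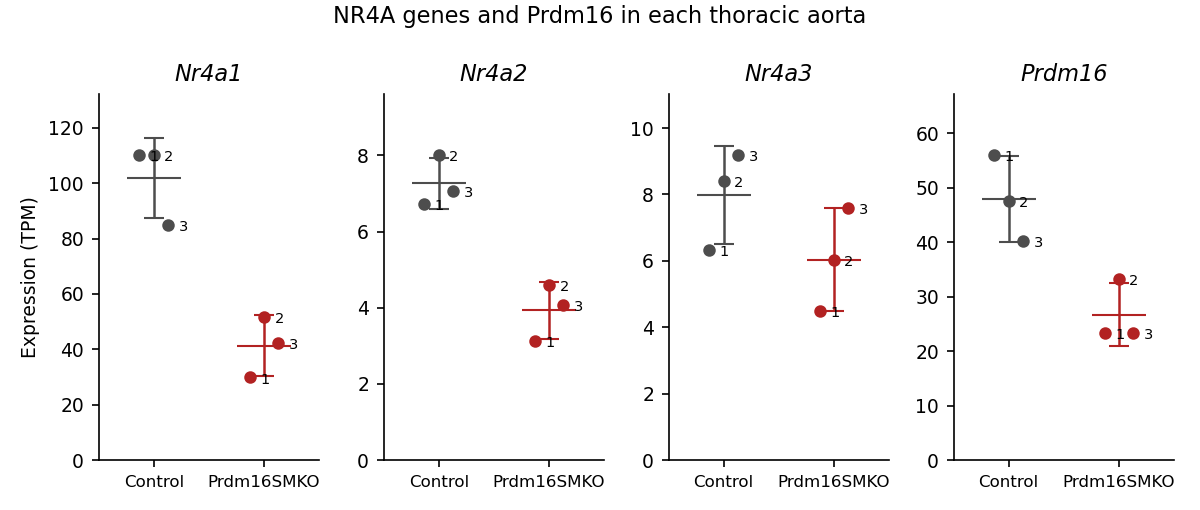
Expression in TPM (y axis, from 0 in each panel) of Nr4a1, Nr4a2, Nr4a3, and Prdm16 in the 3 control and 3 Prdm16SMKO aortas (points, numbered by replicate), with the mean and SD of each group (bars). The groups do not overlap for Nr4a1, Nr4a2, and Prdm16, and they overlap for Nr4a3.

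Relative to the median of all tested genes, the log2 differences were −1.21 for Nr4a1, −0.77 for Nr4a2, and −0.30 for Nr4a3. By limma, 168 of the 15668 tested genes were called at an adjusted p under 0.05 (1.07%), of which 107 were lower in Prdm16SMKO aortas (0.683%) and 61 higher (0.389%). Every Prdm16SMKO aorta lay below every control aorta for 14.9% of all tested genes, and above for 4.08%. Among the NR4A genes 2 of 3 lay below. Because these genes were chosen from this comparison, nothing is read from that count.

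With each aorta rescaled by the median of its gene ratios, the order of the 3 genes stayed as before. Nr4a1 was then 94.82, 108.05, and 88.47 TPM in the control aortas and 31.43, 49.20, and 47.46 TPM in the Prdm16SMKO aortas. Nr4a2 was 5.78, 7.85, and 7.35 TPM against 3.29, 4.38, and 4.57 TPM. For both genes the groups still did not overlap. Leaving out each aorta in turn moved the log2 difference of Nr4a1 between −1.51 and −1.11, that of Nr4a2 between −1.0 and −0.73, and that of Nr4a3 between −0.59 and −0.22.

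The make-up of the family shifted with its level. Summed over the 3 genes, the level was 123.27, 126.75, and 101.32 TPM in the control aortas and 37.51, 62.44, and 53.96 TPM in the Prdm16SMKO aortas. Nr4a1 made up 89.4%, 87.0%, and 83.9% of that sum among controls, against 79.7%, 83.0%, and 78.4% among Prdm16SMKO aortas, and the groups did not overlap. Within an aorta TPM ratios are free of any scaling between aortas. The ratio of Nr4a1 to Nr4a2 was 16.4, 13.8, and 12 among controls, against 9.55, 11.2, and 10.4 among Prdm16SMKO aortas. The ratio of Nr4a3 to Nr4a2 was 0.942, 1.05, and 1.3 among controls, against 1.43, 1.31, and 1.86 among Prdm16SMKO aortas. So Nr4a1 was lower and Nr4a3 higher relative to Nr4a2 in every Prdm16SMKO aorta than in every control aorta, the second by a narrow margin. As the genes were chosen from this contrast, these ratios too are a description.

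Per transcript length, Nr4a1 ranked among the well expressed genes of the control aorta, above 93.4% to 94.8% of the tested genes, and above 80.8% to 88.1% of them in Prdm16SMKO aortas. Nr4a2 stood above 41.8% to 48.1% of tested genes in the control aortas and 31.1% to 36.6% in Prdm16SMKO aortas. Nr4a3 stood above 40.5% to 52.9% and 37.1% to 49.7%. Across aortas the levels of Nr4a2 and Nr4a3 overlapped in both groups. Within an aorta Nr4a3 was above Nr4a2 in all 3 Prdm16SMKO aortas and in 2 of the 3 control aortas.

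Among the 49 nuclear receptor genes of the mouse, 32 passed the filter, 29 of them outside the NR4A family. By mean TPM over the 6 aortas the most abundant were Nr1d1 (REV-ERBα, a clock repressor, 165 TPM), Thra (thyroid hormone receptor α, 142 TPM), Nr1d2 (REV-ERBβ, 72.3 TPM), Nr4a1 (71.6 TPM), and Nr1h2 (liver X receptor β, 58.5 TPM). Nr4a1 ranked 3 in the control and 6 in the Prdm16SMKO means, whereas Nr4a3 ranked 21 and 22 and Nr4a2 ranked 22 and 27. Nr1d2 and Nr4a1 had almost the same mean, but Nr1d2 was the lower of the pair in the control means (64.5 TPM) and the higher in the Prdm16SMKO means (80.0 TPM).

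No other nuclear receptor was called by limma in either direction, and 2 of the 29 had an unadjusted p under 0.05 (12.7% of all tested genes). Their median log2 difference was −0.06 (all tested genes −0.12), with 17 below 0 and 12 above. Of the 32 log2 differences, those of Nr4a1 and Nr4a2 were the lowest, followed by Pgr (progesterone receptor) and Nr4a3. Pgr was 8.11, 6.55, and 6.30 TPM in the control aortas and 3.99, 6.04, and 3.85 TPM in the Prdm16SMKO aortas (log2 difference −0.61 ± 0.22, limma adjusted p = 0.288). Pparg, the adipocyte receptor PPARγ, was at 0.49 ± 0.32 in the upward direction (limma adjusted p = 0.553). The study's own list of differentially expressed genes with PRDM16 promoter peaks holds Nr1d2 and Nr2f2 as higher and Pgr as lower. It also holds Nr4a1 and Nr4a2 as lower, and it does not hold Nr4a3. That list was drawn from these same data, so it is no independent support for the differences given here.

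**Figure D3:**
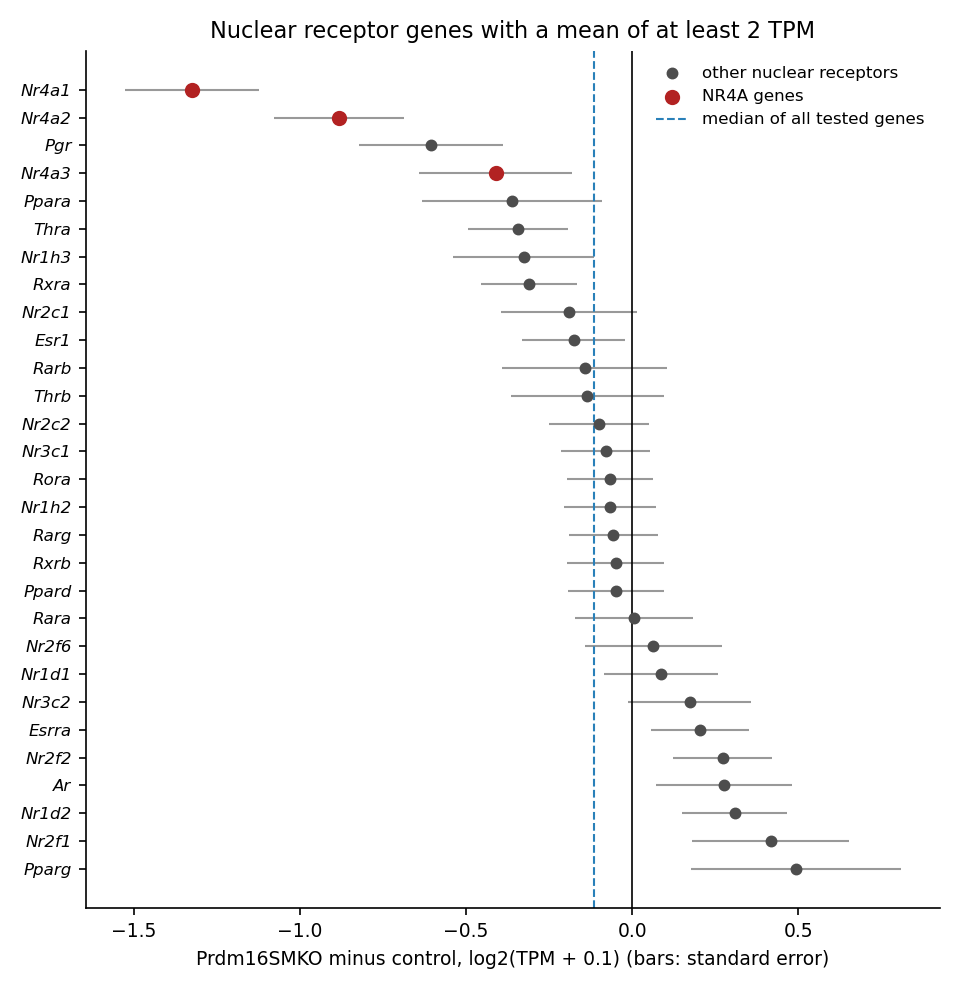
Difference between Prdm16SMKO and control aortas in log2(TPM + 0.1) (x axis, points, with SE as bars) for the 29 nuclear receptor genes, of 32 tested, with a mean of at least 2 TPM, in order. The dashed line is the median of all tested genes (−0.12), and Nr4a1 and Nr4a2 have the lowest values.

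None of the 14 partners and corepressors of the family was called by limma (1.07% of all tested genes). An unadjusted p under 0.05 was found for 1 (12.7% of all tested genes). Every Prdm16SMKO aorta lay below every control aorta for 5 of the 14, against 14.9% of all tested genes. Of these genes 13 lay below 0, and the median log2 difference was −0.17 (all tested genes −0.12). Rxra, a retinoid X receptor gene, had a mean of 33.4 TPM in the control aortas and 26.9 TPM in the Prdm16SMKO aortas (log2 difference −0.31 ± 0.14, limma adjusted p = 0.426). Rxrb had a similar level, with means of 29.3 TPM and 28.6 TPM. Rxrg was the partner with the greatest difference in size, −0.37 ± 0.82, at a mean of only 0.73 TPM.

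Upstream of the NR4A genes, 3 signaling branches were looked at, and limma called no gene in any of them. Of all tested genes, 1.07% were called and 12.7% had an unadjusted p under 0.05. In the CREB branch, which holds CREB, its CRTC coactivators, and protein kinase A, the 15 genes had a median log2 difference of −0.15, with 13 below 0 and none with an unadjusted p under 0.05. The greatest differences in size were those of Crtc1 (a CREB coactivator, −0.47 ± 0.28, limma adjusted p = 0.523), Crem (−0.42 ± 0.19, limma adjusted p = 0.395), and Crtc3 (−0.34 ± 0.17, limma adjusted p = 0.450).

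In the calcium branch of calcineurin, NFAT, and MEF2, the 14 genes had a median of −0.08, with 9 below 0. An unadjusted p under 0.05 was found for 1 gene (12.7% of all tested genes). That gene was Mef2a, of the MEF2 family of NR4A1 activators, at −0.35 ± 0.14 (limma adjusted p = 0.329). Nfatc2 was at 0.40 ± 0.37 and the calcineurin subunit gene Ppp3cc at −0.32 ± 0.16. In the ERK branch the 14 genes had a median of −0.07, with 10 below 0 and again 1 at an unadjusted p under 0.05.

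That gene of the ERK branch was Mapk7, which encodes ERK5, a kinase upstream of MEF2. It was 9.69, 9.86, and 8.39 TPM in the control aortas and 13.95, 12.88, and 12.14 TPM in the Prdm16SMKO aortas. The groups did not overlap, and the difference was upward, opposite to the NR4A genes (log2 difference 0.48 ± 0.14, limma adjusted p = 0.201). After median ratio rescaling it was 0.59, with a limma adjusted p of 0.0417, and so was called there.

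Genes that share the cAMP and CREB input with the NR4A family held 1 called gene of 13 tested, against 1.07% of all tested genes, and 6 had an unadjusted p under 0.05, against 12.7%. The median log2 difference was −0.32 (all tested genes −0.12), with 9 below 0 and 4 above. The called gene was Gem, a small GTPase that limits calcium channels at the cell surface. Gem was 63.77, 48.09, and 58.90 TPM in the control aortas and 27.72, 26.20, and 21.25 TPM in the Prdm16SMKO aortas. It fell by 1.18 ± 0.15 on the log2 scale (SE, limma adjusted p = 0.00953), with every Prdm16SMKO aorta below every control aorta. It was not called when limma was fitted without the mean-variance trend.

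Also on this list, and named after its values were seen, was Pde4b, a cAMP phosphodiesterase. It was 23.26, 22.15, and 20.30 TPM in the control aortas and 12.76, 14.88, and 9.27 TPM in the Prdm16SMKO aortas, without overlap (log2 difference −0.85 ± 0.18, limma adjusted p = 0.0766). The list was not uniform. Per1, a clock gene and CREB target also named after its values were seen, had a log2 difference of 0.57 ± 0.19 (limma adjusted p = 0.237).

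The immediate-early genes, the class to which the NR4A genes belong, did not move one way. Of 30 genes other than the NR4A genes, 27 were tested, none was called by limma, and 9 had an unadjusted p under 0.05 (12.7% of all tested genes). Of these 27, 13 lay below 0 and 14 above, with a median of 0.01 (all tested genes −0.12). Every Prdm16SMKO aorta lay below every control aorta for 6 of them and above for 3, against 14.9% and 4.08% of all tested genes.

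The immediate-early gene with the greatest difference was Ptgs2, which encodes the prostaglandin enzyme COX-2 and is on the cAMP list as well. It was 12.16, 9.01, and 7.99 TPM in the control aortas and 2.74, 4.96, and 4.75 TPM in the Prdm16SMKO aortas. The groups did not overlap (log2 difference −1.23 ± 0.26, limma adjusted p = 0.0721). Atf3, a stress-induced factor, was 106, 52.5, and 48.86 TPM in the control aortas and 32.95, 43.84, and 31.15 TPM in the Prdm16SMKO aortas. Its log2 difference was −0.86 ± 0.28 (limma adjusted p = 0.235), and its first control aorta stood far above the others. Egr2 was at 0.86 ± 0.37 in the opposite direction (limma adjusted p = 0.381). Fos, added after its values were seen because it is the usual marker of the class, was 75.87, 27.64, and 16.65 TPM in the control aortas and 12.38, 27.77, and 21.81 TPM in the Prdm16SMKO aortas. The first control aorta stood far above the others for Fos, and the groups overlapped, unlike for Nr4a1.

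Downstream, genes reported elsewhere as NR4A targets had a median log2 difference of 0.05 (all tested genes −0.12). Of 22 such genes, 16 were tested, and none was called by limma. Of the 16, 2 had an unadjusted p under 0.05 (12.7% of all tested genes), 7 lay below 0, and 9 above. The list covers several tissues. Spp1 (osteopontin) was at −1.0 ± 0.55 with a mean of 0.735 TPM, and Tox2, a factor studied in T cells, was at 0.53 ± 0.23 (limma adjusted p = 0.390).

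**Figure D4:**
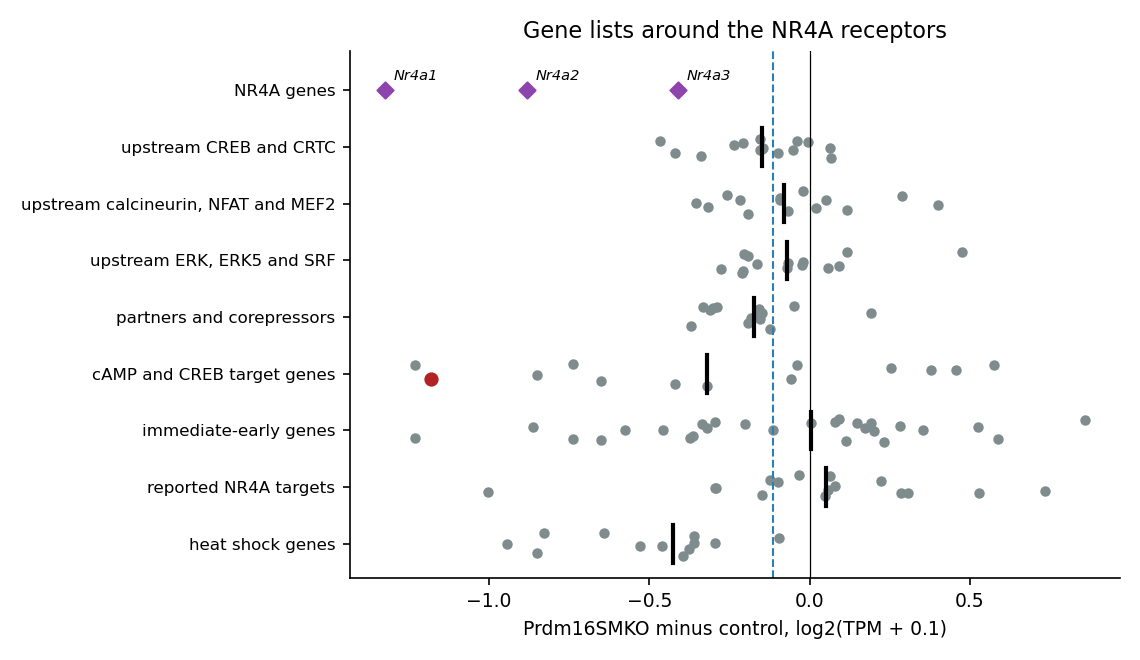
Difference between Prdm16SMKO and control aortas in log2(TPM + 0.1) (x axis) for the genes of each list (gray points, red where called by limma), spread vertically at random, with the list median (black bars) and the NR4A genes (diamonds). The dashed line is the median of all tested genes (−0.12), and the called gene is Gem, at −1.18.

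Heat shock genes, which respond to stress of tissue and cells, had lower values alongside the NR4A genes. All 12 lay below 0 with a median log2 difference of −0.43 (all tested genes −0.12), and every Prdm16SMKO aorta lay below every control aorta for 8 of 12 against 14.9% of all tested genes. None was called by limma, and 10 had an unadjusted p under 0.05 (12.7% of all tested genes). Their summed level was 3472 to 4296 TPM in the control aortas and 2461 to 3305 TPM in the Prdm16SMKO aortas. Hspa1a was at −0.94 ± 0.29 (limma adjusted p = 0.216), Hsph1 at −0.85 ± 0.18 (limma adjusted p = 0.0719), and Hspa1b at −0.83 ± 0.30 (limma adjusted p = 0.288). Hspa1a and Hspa1b are near-identical copies, so the division of reads between them is uncertain. The part of this difference in that of the NR4A genes was not tested.

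Markers of the cells in the vessel wall were summed beside the NR4A genes. Smooth muscle markers were 21070 to 24620 TPM in the control aortas and 14090 to 18240 TPM in the Prdm16SMKO aortas. Of the 8, 7 lay below 0 (10636 of all 15668 tested genes), with a median log2 difference of −0.32 (all tested genes −0.12). Every Prdm16SMKO aorta lay below every control aorta for 4 of 8 (14.9% of all tested genes). An unadjusted p under 0.05 was found for 4 (12.7% of all tested genes). Endothelial markers (124.0 to 158.1 TPM against 91.89 to 200.9 TPM), fibroblast markers (1129 to 1406 TPM against 949.7 to 1403 TPM), and macrophage markers (66.48 to 92.86 TPM against 53.65 to 90.61 TPM) overlapped between the groups.

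Of 8 T cell markers 2 were tested, and the sum was 1.23 to 2.97 TPM in the control aortas and 4.58 to 8.42 TPM in the Prdm16SMKO aortas. The sum was higher in every Prdm16SMKO aorta, opposite to the NR4A genes. Trac, a T cell receptor chain, was 0.12, 0.14, and 0 TPM in the control aortas and 1.61, 1.54, and 1.22 TPM in the Prdm16SMKO aortas, and Lck, a T cell kinase, had means of 0.647 and 2.50 TPM. Of the CD3 chains of the receptor, Cd3e had means of 0.383 and 0.277 TPM, and Cd3g had means of 0.310 and 0.160 TPM. Cd3d had means of 0.02 and 0.09 TPM and was listed at 0 in 3 of the 6 aortas. Cd4 (0.223 and 0.530 TPM), Cd8a (0.157 and 0.647 TPM), and Cd2 (0.110 and 0.390 TPM) had higher means in Prdm16SMKO aortas, with overlapping groups. These CD3, CD4, CD8, and CD2 genes did not pass the filter. Brown adipocyte (103.2 to 608.6 TPM against 149.0 to 515.6 TPM) and adipocyte (752.1 to 2324 TPM against 687.1 to 1333 TPM) markers overlapped, as did those of red blood cells (944.2 to 4620 TPM against 761.1 to 2625 TPM), skeletal muscle (11.01 to 15.09 TPM against 5.21 to 14.46 TPM), and Schwann cells and neurons (11.75 to 16.44 TPM against 13.06 to 17.45 TPM). The sum for 6 B cell markers was 6.13 to 9.40 TPM against 3.48 to 4.01 TPM, of which Ighm, the 1 of the 6 that was tested, had means of 6.35 and 2.90 TPM. No marker was called by limma, and the part of any of these lists in the NR4A differences was not tested.

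The genes most like each NR4A gene were ranked by the mean absolute difference of log2(TPM + 0.1) values, each centered on the gene's mean, over the 6 aortas and 13685 genes. For Nr4a1 the nearest were Ptgs2 (0.129), Lratd1 (0.139), Hspb7 (0.160), Zfp979 (0.162), and Eva1a (0.162). Hspb7 encodes a small heat shock protein of muscle. Nr4a2 came 29 in that order, and Nr4a3 came 1225.

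For Nr4a2 the nearest genes were Gm9774 (0.0851), Arhgap4 (0.0884), Aqp1 (0.107), Rab40b (0.120), and Pigyl (0.120). Aqp1 encodes the water channel aquaporin 1 and was 152.01, 180.05, and 153.24 TPM in the control aortas and 88.74, 107.09, and 103.67 TPM in the Prdm16SMKO aortas. For Nr4a3 the nearest were Ggnbp1 (0.0699), Ednrb (the endothelin B receptor, 0.0940), Cenpa (0.104), Rpl17-ps3 (0.105), and Cpt2 (0.107). Rpl17-ps3 is a pseudogene, and how well its reads were told from those of its parent gene was not examined. The 5 nearest genes of each NR4A gene held none of the other NR4A genes.

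Genes next to the NR4A loci were examined for the same difference. Beside Nr4a1, Grasp at 21.5 kb had a log2 difference of −0.18 ± 0.17, and Atg101 at 9.5 kb had −0.24 ± 0.14. Beside Nr4a3, Stx17 at 38.5 kb had −0.17 ± 0.18, and Sec61b at 561.9 kb had −0.22 ± 0.12. The nearest tested genes to Nr4a2 were A930012O16Rik at 112.2 kb (0.14 ± 0.36) and Gm13502 at 3410 kb (−2.80 ± 1.22), which was listed at 0 in 2 Prdm16SMKO aortas. None of the 6 neighbors was called by limma (adjusted p from 0.387 to 0.916).

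ChIP-Seq placed Flag-PRDM16 peaks at or near each of the 3 genes in fibroblasts. The list held 11271 peaks with a median fold enrichment of 5.271 over the local background, and the vector list held 67. In or within 50 kb of the NR4A genes there were 11 PRDM16 peaks, 7 for Nr4a1, 3 for Nr4a2, and 1 for Nr4a3, and no vector peak. With 1 library of each kind no test between PRDM16 and vector was possible. The promoter peaks of Nr4a1 and Nr4a2 and the nearest peak of Nr4a3 are printed as up to 300 bases around the summit, with capitals for a CRE half-site, a GC box, or an E-box.
Nr4a1 promoter peak, chr15:101266239-101266538, plus strand: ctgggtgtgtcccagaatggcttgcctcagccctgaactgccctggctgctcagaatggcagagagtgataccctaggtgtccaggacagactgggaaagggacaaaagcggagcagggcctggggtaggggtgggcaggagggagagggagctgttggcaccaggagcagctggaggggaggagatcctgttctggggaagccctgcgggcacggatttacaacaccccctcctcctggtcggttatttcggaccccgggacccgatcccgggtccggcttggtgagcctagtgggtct
Nr4a2 promoter peak, chr2:57123412-57123711, plus strand: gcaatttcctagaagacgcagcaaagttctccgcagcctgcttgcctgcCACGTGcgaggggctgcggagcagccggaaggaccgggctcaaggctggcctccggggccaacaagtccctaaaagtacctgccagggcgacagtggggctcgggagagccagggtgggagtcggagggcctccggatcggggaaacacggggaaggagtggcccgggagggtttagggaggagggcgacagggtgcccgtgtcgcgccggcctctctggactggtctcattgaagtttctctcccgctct
Nr4a3 upstream peak, chr4:48042896-48043149, plus strand: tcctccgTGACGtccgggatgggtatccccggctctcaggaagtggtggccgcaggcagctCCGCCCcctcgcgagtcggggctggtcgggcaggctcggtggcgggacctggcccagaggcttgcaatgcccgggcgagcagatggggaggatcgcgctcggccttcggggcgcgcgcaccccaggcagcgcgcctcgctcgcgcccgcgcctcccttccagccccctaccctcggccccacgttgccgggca

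The Nr4a1 promoter peak, chr15:101266129-101266529, was centered 517 bases before the RefSeq TSS, in an intron of the longer GENCODE transcript. It had a fold enrichment of 4.926 (q = 9.98e-06), higher than 46.0% of all PRDM16 peaks. None of the 8 motifs was found in its window. The peak ended before the printed promoter stretch began, so the 4 half-sites of Nr4a1 lie outside it.

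A second Nr4a1 peak, chr15:101253916-101254496, covered the start of that longer transcript, which lies 63 bases from the peak's center and 12.6 kb upstream of the RefSeq TSS. Its fold enrichment was 4.034 (q = 0.000126). Another peak lay 18.5 kb upstream of the RefSeq TSS, with a fold of 4.922. The remaining 4 lay outside the gene on the side of Grasp, and the strongest of them, with a fold of 6.822 (q = 4.34e-11, above 81.7% of peaks), was 239 bases from the Grasp TSS and 42.4 kb from that of Nr4a1. The others had folds of 4.219, 4.538, and 3.411. The last of these had a q of 0.0133.

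Nr4a2 had a peak at each of its RefSeq starts. The first, chr2:57123470-57123970, was centered 283 bases downstream of the outer TSS, overlapped an untranslated region, and had a fold of 4.341 (q = 0.000126), above 25.6% of peaks. The window around its summit held 1 E-box, just outside the called peak, a motif found in 5.11% of peak windows of the same length. The second, chr2:57115697-57115932, lay in an intron, 776 bases upstream of the inner TSS, with a fold of 3.906 (q = 0.000942) and none of the motifs. Another peak, chr2:57102870-57103156, lay beyond the 3′ end of the gene with a fold of 4.570.

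Nr4a3 had 1 peak, chr4:48042896-48043149, outside the gene and centered 2283 bases upstream of the RefSeq TSS. Its fold enrichment was 4.570 (q = 0.000121), above 28.6% of peaks. This window held 1 CRE half-site and 1 GC box, which were found in 19.3% and 44.0% of peak windows. All peaks of the NR4A genes other than the one beside Grasp had a fold below the median of the list.

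**Figure D5:**
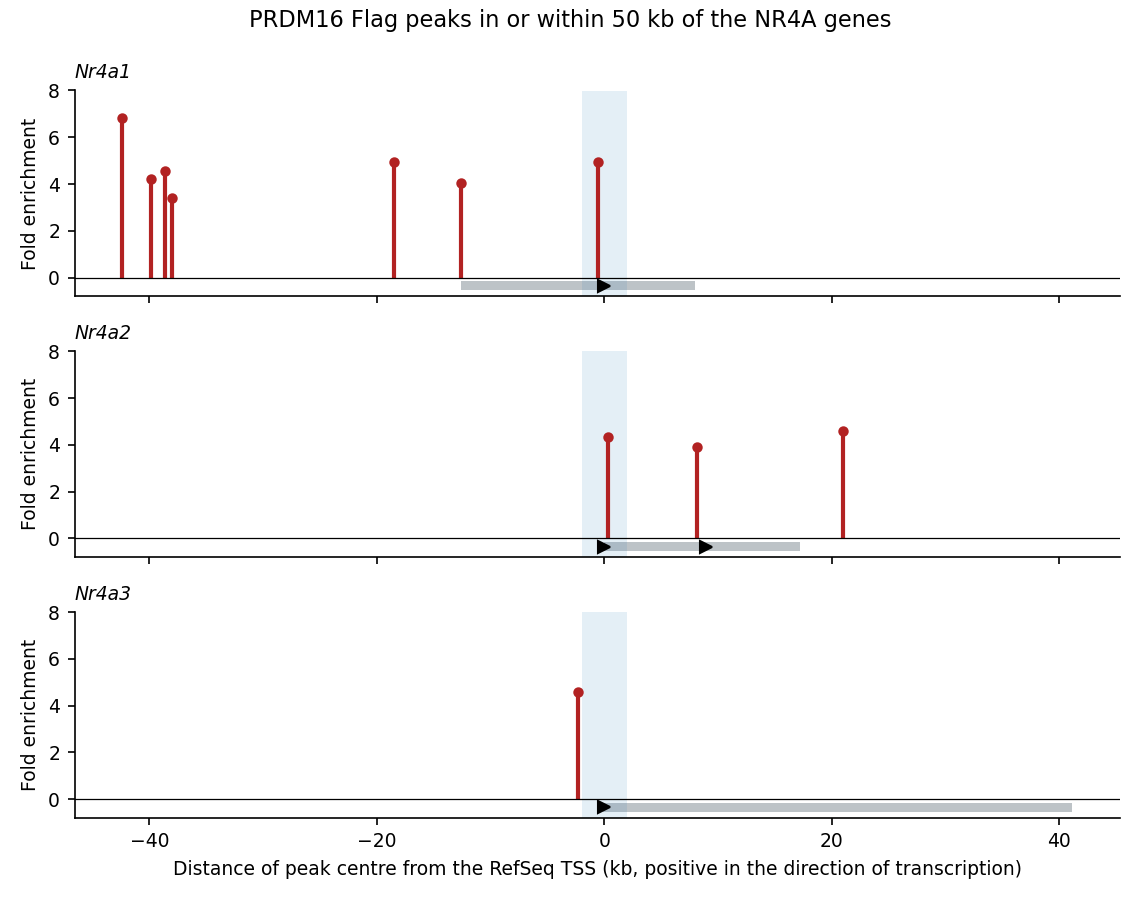
PRDM16 Flag peaks in or within 50 kb of each NR4A gene, with the distance of the peak center from the RefSeq TSS in kb (x axis) and the fold enrichment over local background (y axis). Gray bars are the genes, arrowheads the RefSeq starts, and shading the 2 kb on each side of the TSS, which holds a peak for Nr4a1 and Nr4a2 but not for Nr4a3.

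With a promoter peak defined as a center within 2 kb of a RefSeq TSS, 2 of the 3 NR4A genes had one, Nr4a1 and Nr4a2, against 43.3% of the 13142 tested genes with a TSS. A limit of 5 kb added Nr4a3 and brought the share of tested genes to 45.3%. Such peaks were found at 19 of the other 29 nuclear receptors (65.5%), at 21 of 27 immediate-early genes (77.8%), and at 6 of 13 cAMP and CREB target genes (46.2%), and Gem had none. They were found at 11 of 12 heat shock genes (91.7%) and at none of 8 smooth muscle markers. A promoter peak was thus common among tested genes, and with 3 genes a count of 2 cannot be told from the share of 43.3%.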

How the data were processed

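The authors deposited RNA-Seq as TPM, 1 column per aorta, and each ChIP-Seq peak list with positions, the summit's fold enrichment (a ratio to local background), −log10 p, and −log10 q. The integer score in the deposited lists was not used. The submitters' processing notes name STAR 2.7.8a, RSEM 1.3.3, cutadapt 2.3, Bowtie2 2.3.4.1, and MACS2, with GRCm38. The library used as the MACS2 control is not given in the sources used here. Per the labels, libraries were poly(A) selected and only an average depth is given. TPM keep no depth, so the depth of each aorta is unknown here and no counting interval was made. The table held no unused value column (0).

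Groups followed the sample titles. Differential expression was fitted with limma 3.58.1 in R 4.3.3 (lmFit, eBayes with trend) on log2(TPM + 0.1), with no covariate, for genes whose mean TPM was 0.5 or more. Benjamini-Hochberg adjustment ran over every tested gene, and an adjusted p under 0.05 was a call. Nothing states whether replicates are separate litters or batches, so p values measure the spread between these samples. A fold change on this scale understates that of low genes. The fit was tested on simulated data. The NR4A genes and all gene lists were chosen with earlier results of these data known. Named genes are the NR4A genes, Prdm16, the called genes of each list (otherwise up to 3 with the largest difference), the 5 most abundant nuclear receptors, the neighbors, and the 5 most alike genes. Some genes that this rule names are not reported here. Promoters are from RefSeq (GRCm38), and all 3 genes matched. The gene at the top of every library, CT010467.1, took 20.2% to 28.2% of TPM, and mitochondrial genes took 14.7% to 26.5%. Alternatives were other pseudocounts, filters, scalings, no trend, a replicate block, leaving out each aorta, and other peak distances.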

Additional observations from a re-analysis of the deposited data

How the results depend on the processing

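Over 14 alternatives the log2 differences of Nr4a1, Nr4a2, and Nr4a3 kept their direction, with the ranges given by leaving out each aorta. The count of genes called among all tested was 168 (107 lower, 61 higher). It was 110 with no filter on low values, 48 without the mean-variance trend (24 lower, 24 higher), 411 with median ratio rescaling (215 lower, 196 higher), 392 with quantile normalization (203 lower, 189 higher), and 91 to 141 with each aorta left out. Shared replicate numbers did not mark pairs, since same-numbered aortas had correlations of −0.0246, −0.0700, and −0.00896 in their deviations from the group means, and no aorta correlated best with its own number. With a replicate block 184 genes were called.

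Prdm16 was called with median ratio rescaling (log2 difference −0.73, adjusted p = 0.0232), with quantile normalization (−0.72, adjusted p = 0.0335), and without Prdm16SMKO replicate 2 (adjusted p = 0.0398), and leaving out each aorta gave −1.02 to −0.73. With median ratio rescaling 1 other nuclear receptor (Nr1d2, higher), 1 gene of the ERK branch (Mapk7, higher), 1 reported target (higher), 2 cAMP and CREB targets (Gem and Pde4b, lower), and 1 immediate-early gene (Fosl2, lower) were called. Quantile normalization gave the same genes without Nr1d2, that is 1, 1, 2, and 1. Without the trend 0 cAMP and CREB targets were called. Both rescalings move the median of all genes to near 0, and the cause of the other changes was not tested. Gem was called without each aorta in turn, at adjusted p from 0.0182 to 0.0498. A limit of 10 kb in place of 50 kb left 7 of 11 peaks. In the main fit limma did not call several genes on the study's own list of differentially expressed genes with PRDM16 promoter peaks. Among them were Nr1d2, Nr2f2, Mapk7, and Bcl2, listed there as higher. Pgr, Mef2a, Pde4b, Jun, Fosl2, Atf3, Klf6, and Hsph1 were listed as lower. The study's list gives a base mean for each gene in place of TPM, and its paper does not name the test. Its calls and those of limma were therefore not made alike.

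The 3 aortas per group and unknown depth limit the precision of all RNA values, and 1 library per ChIP condition leaves the peaks without a replicate check.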
